A study of Mus musculus with 6 samples.

Results

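The IL-20 subfamily of cytokines and its receptors were followed across 6 arrays of mouse skin and skin tumours. The 6 genes were the ligands Il19, Il20 and Il24 and the receptor chains Il20ra, Il20rb and Il22ra1, out of 19057 genes with a named probe. They were found as the probes annotated to these genes, and for each gene the probe with the highest mean signal over the 6 arrays was used. That choice mattered only for Il20ra, with 3 probes, and Il20rb, with 2, since each of the other 4 genes had 1 probe. The mean signal of the Il20ra probe used was 179.5, against 92.4 and 86.95 for the probes not used, and that of the Il20rb probe was 956.7, against 119.7. A probe counted as detected on an array when its detection p, the deposited measure of its signal against background turned to run from 0 for bright probes, was under 0.01. By that measure 4 of the 6 genes, Il19, Il24, Il20ra and Il20rb, were detected on at least 1 array and entered the tests with 11998 genes in all, and Il20 and Il22ra1 were detected on none.

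The study compared wild-type (WT, Sting +/+) mice with STING-deficient (SKO, Sting -/-) mice, all on a mixed C57BL6/129Sv background. STING is an adaptor that relays the sensing of cytosolic DNA. Backs of mice aged 8 weeks at the start were shaved and painted weekly with 10 µg DMBA, a carcinogenic hydrocarbon, in 100 µl acetone for 18 to 20 weeks, while controls received 100 µl acetone. WT acetone skin had 1 array, tumours of DMBA-painted WT mice 2, SKO acetone skin 1 and DMBA-painted SKO skin 2. Tumours came from WT mice alone and painted skin from SKO mice alone, so in the painted groups genotype cannot be told apart from tissue. The labels do not say that the 6 samples are 6 mice, so the spread behind each p-value may not be a spread between mice. These are bulk samples, in which fewer cells of a type and less RNA per cell cannot be told apart.

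IL-19, IL-20 and IL-24 belong to the IL-10 cytokine family. In human cells all of them bind a receptor of the chains IL-20RA and IL-20RB, and IL-20 and IL-24 also bind one of IL-22RA1 and IL-20RB; IL-22RA1 pairs with IL-10RB to receive IL-22. The receptors signal through Janus kinases to STAT3, and keratinocytes, which carry the receptors, answer with proliferation and with antimicrobial proteins in inflamed and wounded skin. The ligand genes lie side by side on mouse chromosome 1 (GRCm38.p6, RefSeq): Il24 at chr1:130882074-130887411, Il20 at chr1:130906985-130911296 and Il19 at chr1:130932656-130945457, with 19573 and 21359 bases between them. The receptor genes are apart, Il20ra at chr10:19711673-19760053, Il20rb at chr9:100457719-100486473 and Il22ra1 at chr4:135728159-135755383.

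The 250 bases before an annotated transcript start of 4 of these genes are shown. They are the neighbouring ligands, of which Il19 was detected and Il20 was not, and the receptor chains that were detected. The sequences are those of RefSeq (GRCm38.p6), which gave an entry for 5 of the 6 genes, and the starts are those of the entries' own transcripts. For Il19 and Il20ra these starts lie inside the gene spans given above, so their windows are not upstream of the whole gene. The windows are chr1:130940116-130940365 (minus strand) for Il19, chr1:130911297-130911546 (minus) for Il20, chr10:19712337-19712586 (plus) for Il20ra and chr9:100486474-100486723 (minus) for Il20rb, each 5′ to 3′. Capitals mark matches to the motifs searched on both strands.
Il19: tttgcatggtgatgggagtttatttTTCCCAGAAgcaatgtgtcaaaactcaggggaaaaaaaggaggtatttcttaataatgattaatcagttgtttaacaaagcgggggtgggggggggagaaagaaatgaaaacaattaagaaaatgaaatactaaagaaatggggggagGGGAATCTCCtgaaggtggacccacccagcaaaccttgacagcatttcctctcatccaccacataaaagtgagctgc
Il20: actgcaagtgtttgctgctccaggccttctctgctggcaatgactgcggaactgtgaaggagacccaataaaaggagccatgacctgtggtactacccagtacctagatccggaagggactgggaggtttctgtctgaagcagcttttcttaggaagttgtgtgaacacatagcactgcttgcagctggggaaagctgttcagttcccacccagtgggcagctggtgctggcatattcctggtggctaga
Il20ra: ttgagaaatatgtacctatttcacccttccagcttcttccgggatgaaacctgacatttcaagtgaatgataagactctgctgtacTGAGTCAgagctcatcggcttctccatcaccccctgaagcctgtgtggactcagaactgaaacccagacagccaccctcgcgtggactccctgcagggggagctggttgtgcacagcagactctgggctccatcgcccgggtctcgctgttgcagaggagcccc
Il20rb: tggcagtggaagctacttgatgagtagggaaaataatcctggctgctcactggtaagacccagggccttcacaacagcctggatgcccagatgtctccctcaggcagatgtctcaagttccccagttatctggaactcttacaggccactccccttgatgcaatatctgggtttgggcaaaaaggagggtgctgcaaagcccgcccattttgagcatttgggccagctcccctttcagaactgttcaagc
The motifs were AP-1 (TGANTCA), STAT (TTCNNNGAA), NF-κB and the TATA box (TATAAA). The Il19 window held a STAT match, TTCCCAGAA, 225 to 217 bases before the start, and an NF-κB match, GGGAATCTCC, 77 to 68 bases before it. The Il20ra window held 1 AP-1 match, TGAGTCA, 164 to 158 bases before the start, and the Il22ra1 window held another, TGAATCA, 222 to 216 bases before its start. Of 32851 mouse promoter windows of the same length, 6.75% held the AP-1 motif, 7.02% the STAT motif, 3.9% the NF-κB motif and 12.4% the TATA motif. The matches in different motifs did not overlap. A match is a run of letters and not evidence of binding.

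Of the ligands, Il24 and Il19 gave bright signals in both tumours and dim or undetected signals in all 4 skin samples. For Il24, an epidermal cytokine of wounds and inflammation, the deposited intensity was 101.5 in WT acetone skin, 3099.7 and 2540.5 in the tumours, 105.4 in SKO acetone skin, and 92.8 and 144.6 in SKO DMBA skin. On the normalized log2 scale these were 5.43, then 11.69 and 11.37, then 5.45, and then 5.09 and 6.34. The probe was detected on 5 arrays, all but the first SKO DMBA array. The tumours were the high samples and did not overlap with the skin samples, whose own order was not resolved, since the 4 of them lay within the gap of 1.25 log2 units between the SKO DMBA arrays. Against WT acetone skin the tumours stood 6.09 log2 units higher (SE 0.58, 95% interval 4.53 to 7.65), or 68.3-fold. Among the alternatives tried that size ran from 4.92 to 6.25 log2 units. With limma's moderated test and Benjamini-Hochberg adjustment over all 11998 genes the adjusted p was 0.098, above the threshold of 0.05. Without WT tumour 1 it was 0.0201 and without WT tumour 2 it was 0.00298, with the spread then taken from the SKO DMBA arrays alone. The largest adjusted p among the alternatives tried was 0.330.

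Il19, a cytokine of keratinocytes and myeloid cells, had an intensity of 76.1 in WT acetone skin, 989.7 and 3228.8 in the tumours, 93.8 in SKO acetone skin, and 79.4 and 133.9 in SKO DMBA skin. The normalized values were 4.61 in WT acetone skin, 10.15 and 11.71 in the tumours, 5.03 in SKO acetone skin, and 4.63 and 6.15 in SKO DMBA skin. It was detected in both tumours and the second SKO DMBA sample only, among the 6 arrays, and both tumours lay above every skin sample. Since WT acetone skin was not detectably above background, the tumours' mean of 10.93 gives a bound on this normalized scale. That mean was at least 57.0-fold higher than the lowest detected level there, with an adjusted limma p of 0.123 for the fitted difference. The bound belongs to this background correction and offset. Among the alternatives the fitted difference ran from 4.69 to 7.10 log2 units. Without WT tumour 1 the adjusted p was 0.0201 and without WT tumour 2 it was 0.00618, again on the spread of the SKO DMBA arrays alone, and the largest among the alternatives was 0.448. The tumours differed from each other by 1.56 log2 units in Il19 and by 0.32 in Il24, where the median gene differed by 0.35, so Il19 varied more between tumours than the median gene and Il24 about as much. Tumour 2 had the higher Il19 and the lower Il24 value.

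The third ligand, Il20, gave no detected signal. The Il20 probe read 84.2 in WT acetone skin, 56.5 and 80.9 in the tumours, 78.8 in SKO acetone skin, and 63.0 and 71.6 in SKO DMBA skin, with detection p-values from 0.037 to 0.99. Its signal was therefore not detectably above background in the tumours in which both neighbouring ligand genes were bright, and the array sets only that limit. No fold was computed for it.

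**Figure D1:**
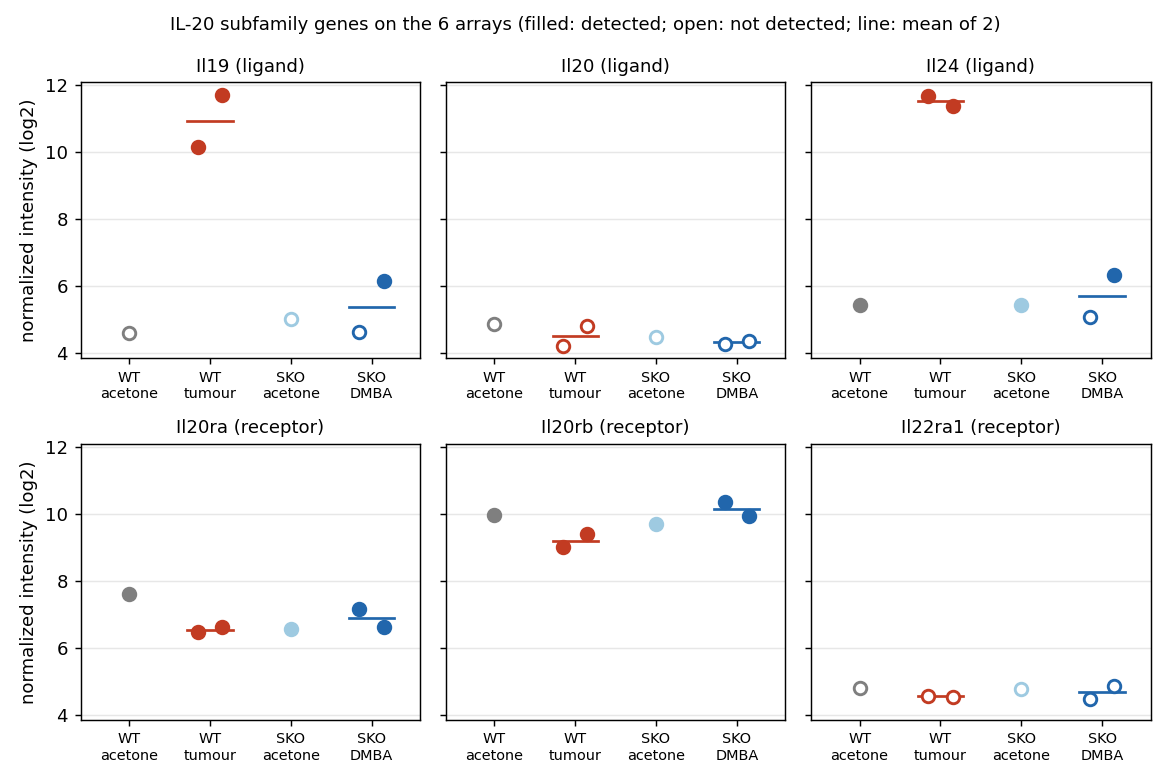
Normalized log2 intensity of the 6 genes on each of the 6 arrays, grouped by genotype and treatment, with filled points for detected and open points for undetected signals and a line at the mean of each group of 2. Il19 and Il24 stand at 10.15 or above in the tumours and at 6.34 or below in skin, while Il20 and Il22ra1 are open throughout; heights are not comparable between probes.

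The detected receptor chains had the lower signals in the tumours of the WT comparison, by far smaller amounts than the ligands' differences. Il20rb, the chain shared by both receptors of the subfamily, had an intensity of 1176 in WT acetone skin, 439.4 and 672.1 in the tumours, 927.8 in SKO acetone skin, and 1472.5 and 1052.6 in SKO DMBA skin. On the log2 scale these were 9.96, then 9.02 and 9.38, then 9.70, and then 10.34 and 9.94. It was detected on all 6 arrays, and both tumours lay below all 4 skin samples. Within skin, WT acetone and the second SKO DMBA sample were closer to each other than the SKO DMBA arrays were, so their order was not resolved. The tumours stood below WT acetone skin by 1.70-fold (log2 difference -0.77, SE 0.33, 95% interval -1.65 to 0.12; limma adjusted p = 0.275).

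Il20ra, a receptor partner of Il20rb, had an intensity of 280.6 in WT acetone skin, 113 and 144.6 in the tumours, 157.4 in SKO acetone skin, and 218.1 and 163.4 in SKO DMBA skin. The log2 values were 7.61 in WT acetone skin, 6.47 and 6.62 in the tumours, 6.55 in SKO acetone skin, and 7.15 and 6.63 in SKO DMBA skin. It was detected on every array. WT acetone skin was the highest sample, and SKO acetone skin and the second SKO DMBA sample were at the tumours' level. The tumours were 2.10-fold below WT acetone skin (log2 difference -1.07, SE 0.33, 95% interval -1.95 to -0.19), with an unadjusted limma p of 0.0272 and an adjusted p of 0.195. The reference of both receptor comparisons is 1 array, so its own spread is not measured.

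The other probes of the receptor chains were dimmer and gave smaller differences in the same direction for tumours against WT acetone skin. For Il20ra these were -0.34 (SE 0.29) and -0.62 (SE 0.35), each from a probe detected on 2 of 6 arrays. For Il20rb the second probe, detected on 5 arrays, gave -0.37 (SE 0.43). In the SKO comparison 1 Il20ra probe, at -0.49, had the opposite sign to the probe used. Probes of 1 gene share its transcripts and are not independent samples.

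Il22ra1, a chain of the receptors for IL-22 and, in human cells, IL-20 and IL-24, was not detected on any array. The Il22ra1 probe read 81.4 in WT acetone skin, 72.8 in both tumours, 87.4 in SKO acetone skin, and 74.5 and 86.4 in SKO DMBA skin, with detection p-values from 0.029 to 0.31. None of these signals was above background, so they have no order.

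In SKO skin the 95% intervals of the difference between DMBA and acetone included 0 for all 4 detected genes. Il24 differed by 0.26 log2 units (SE 0.58, 95% interval -1.29 to 1.82; limma adjusted p = 0.954). Il19, undetected in SKO acetone skin and detected in 1 of the 2 painted samples, had a fitted difference of 0.36 (SE 0.93, 95% interval -2.12 to 2.84; adjusted p = 0.96). For both ligands the second SKO DMBA sample was higher than the first, by 1.25 log2 units in Il24 and 1.52 in Il19, where the median gene differed by 0.23 in either direction. Without that second sample the differences were -0.36 for Il24 and -0.40 for Il19, so 1 array decided their sign. Il20ra was 0.34 higher (SE 0.33; adjusted p = 0.854) and Il20rb 0.44 higher (SE 0.33; adjusted p = 0.807), and these intervals, -0.54 to 1.22 and -0.45 to 1.33, include both no difference and a doubling of signal. In the second SKO DMBA sample both receptor chains were lower than in the first, by 0.52 and 0.41 log2 units, opposite to the ligands.

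Between the DMBA-painted groups the ligands were again far apart. Il24 was 56.0-fold higher in WT tumours than in SKO DMBA skin (log2 difference 5.81, SE 0.48, 95% interval 4.54 to 7.08; limma adjusted p = 0.0711), with 1 of the 2 SKO arrays detected. Il19 was 46.7-fold higher (5.55, SE 0.76, 95% interval 3.52 to 7.57; adjusted p = 0.0732), also with 1 of 2 SKO arrays detected. Among the differences of all 11998 genes in this comparison, Il24 was number 10 from the highest and Il19 number 12. Il20rb was 1.92-fold lower in the tumours (-0.94, SE 0.27, 95% interval -1.67 to -0.22; adjusted p = 0.125), and Il20ra 1.27-fold lower (-0.35, SE 0.27; adjusted p = 0.414). Leaving out a tumour brought 3 of these below the threshold: the adjusted p of Il24 was 0.0136 without WT tumour 1 and 0.00179 without WT tumour 2, that of Il19 was 0.0144 and 0.00496, and that of Il20rb was 0.0384 without WT tumour 2. For Il24 it was also 0.0448 when quantile normalization was used without background correction. Over all alternatives the largest adjusted p was 0.538 for both ligands and 0.540 for Il20rb.

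The difference of the DMBA responses, WT minus SKO, was 5.83 log2 units for Il24 (SE 0.83, 95% interval 3.63 to 8.03; limma adjusted p = 0.414) and 5.96 as fitted for Il19 (SE 1.31, 95% interval 2.46 to 9.47; adjusted p = 0.538). Without WT tumour 2 the adjusted p was 0.0139 for Il24 and 0.0314 for Il19, and the largest among the alternatives was 0.967 for both. For the receptors it was negative, -1.41 for Il20ra (SE 0.47; adjusted p = 0.573) and -1.21 for Il20rb (SE 0.47; adjusted p = 0.632). No gene of 11998 passed the adjusted threshold with limma in any of the 4 comparisons. At an unadjusted p under 0.05, 8.68% of genes were higher and 12.5% lower in tumours against WT acetone skin, 3.98% and 3.77% in the SKO comparison, 12.4% and 17% in tumours against SKO DMBA skin, and 3.47% and 4.52% in the difference of responses. Of the 4 tested members, Il19 and Il24 were among the higher genes in every comparison but the SKO one; Il20ra was among the lower genes in the WT comparison and the difference of responses, and Il20rb in tumours against SKO DMBA skin.

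Il19 and Il24 were the 2 of 4 tested members with both tumours above all 4 skin arrays, a pattern that 26.2% of all tested genes had. Il20rb was the 1 member with both tumours below all skin arrays, which 27.2% of genes shared. No member had all 4 DMBA arrays above both acetone arrays (10.6% of genes) or below them (13.2%). The lack of overlap was thus common across the array. By size of the difference in the WT comparison, Il24 was number 21 of 11998 from the highest, against number 1609 from the lowest for Il20ra and 2263 for Il20rb.

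**Figure D2:**
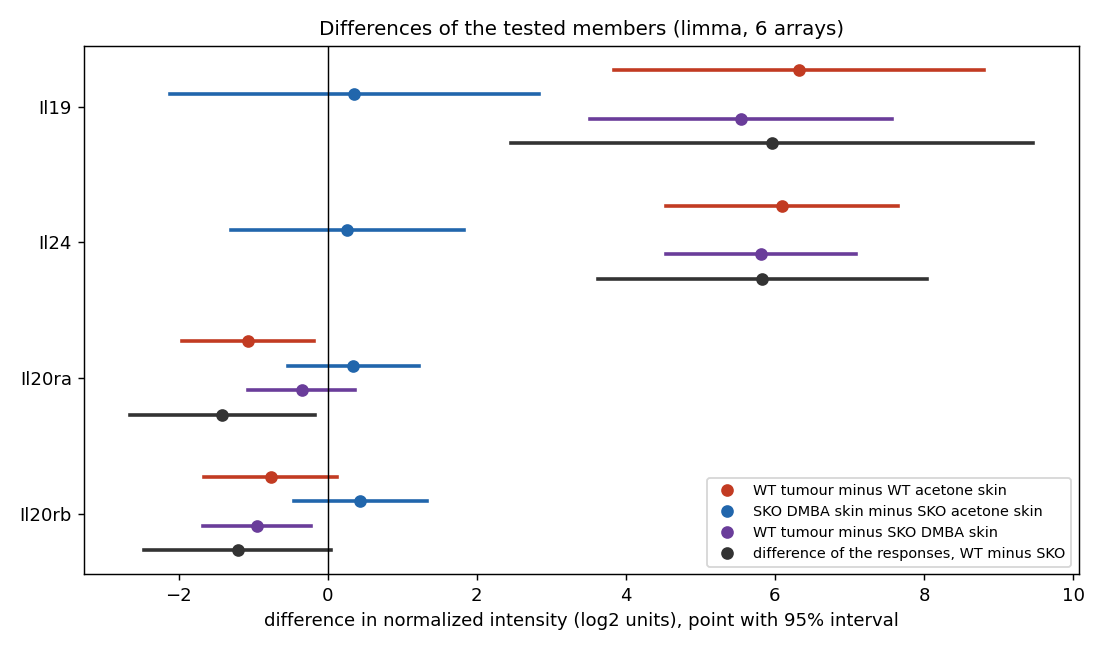
Log2 differences of the 4 tested genes in the 4 comparisons, each point with its 95% interval from limma over 6 arrays. The ligands' intervals lie above 0 wherever tumours enter, from a lowest bound of 2.46, while the SKO intervals of all 4 genes include 0; Il19's differences from acetone skin are fitted against an undetected signal.

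The acetone arrays of the genotypes, 1 against 1, were set side by side without a test. SKO acetone skin differed from WT acetone skin by 0.02 log2 units in Il24, -0.26 in Il20rb and -1.06 in Il20ra. Il19 (0.42), Il20 (-0.41) and Il22ra1 (-0.02) were undetected on both arrays, so their differences have no meaning as levels. The Il20ra difference between the controls was about as large as that between tumours and WT acetone skin, and its 4 other arrays lay between 6.47 and 7.15.

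Markers of cell types were summed on each array, and those of several types differed between the samples. The summed normalized level of 8 keratinocyte markers, of which 7 were detected on every array and Dsg3 on none, was 109563 in WT acetone skin, 101781 and 109907 in the tumours, 99922 in SKO acetone skin, and 108142 and 110582 in SKO DMBA skin. That sum is led by probes near the top of the array's range, such as Krt10, which read at 81.2% to 88.2% of the brightest probe, so it shows little of any change. The median log2 level of the same markers was 12.14 and 13.08 in the tumours, above each skin sample, which lay between 11.37 and 12.02. Of 8 skeletal muscle markers 1 was detected in tumour 1 and all in the other samples, with a summed level of 252 and 18459 in the tumours against 78505 to 167758 in skin. The 7 fibroblast markers summed to 2190 and 15480 in the tumours against 31408 to 47722 in skin. Of 7 macrophage markers on the array 6 were detected throughout, with sums of 1550 and 6127 in the tumours and 7880 to 18673 in skin. The 7 neutrophil markers on the array summed to 54743 and 65691 in the tumours and 858 to 6330 in skin, but S100a8 and S100a9, which keratinocytes also make, carried nearly all of that. The other 5 summed to 489 and 325 in the tumours and 189 to 243 in skin, with Ngp undetected everywhere and Elane in both tumours. T and NK cell markers summed to 301 and 1091 in the tumours and 622 to 2305 in skin, with Cd4 and Cd8a undetected on every array. The hair shaft markers summed to 377 in SKO acetone skin, 15633 in WT acetone skin, and 17106 and 25470 in SKO DMBA skin. Their sums in the tumours were 254 and 5486. The tumours thus differed from skin, and from each other, in markers of several cell types. SKO acetone skin, the reference of the SKO comparison, differed from the other skin samples in hair shaft markers. The part of these marker differences in the ligand and receptor differences was not tested.

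The remaining IL-10 family genes did not share the ligands' pattern. Of 8 listed, 7 had a probe and 3, all receptor chains, were detected. Il10rb, the partner of Il22ra1 in the IL-22 receptor, had log2 values of 8.61 in WT acetone skin, 8.76 and 8.65 in the tumours, 8.97 in SKO acetone skin, and 8.93 and 8.46 in SKO DMBA skin. Its tumours lay within the range of skin (difference from WT acetone skin 0.10, SE 0.32). Ifnlr1, a chain of the interferon-lambda receptor, was 8.15, then 7.82 and 7.82, then 8.34, and then 8.38 and 8.25, so both tumours were the lowest samples, by -0.33 (SE 0.25) against WT acetone skin. Il10ra, the ligand-binding chain for IL-10, was 6.27, then 5.49 and 6.63, then 6.08, and then 7.63 and 6.77, undetected in tumour 1, with a difference of -0.21 (SE 0.64). Il10, Il22, Ifnl3 and the soluble IL-22 receptor Il22ra2 were detected on no array, and Ifnl2 was not analysed here.

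Among genes that carry or restrain the signal, most differed little between tumours and WT acetone skin. Of 6 tested JAK-STAT genes 4 had positive differences, with a median of 0.17 log2 units beside -0.01 for all genes, and none had an unadjusted p under 0.05 in either direction. The ends of the list were the transcription factor gene Stat6 at 0.78 (SE 0.42), the kinase gene Jak1 at 0.39, the kinase gene Tyk2 at -0.23 and Stat5a at -0.60. Stat3, named after its value was seen because the receptors signal through it, was 0.07 higher (SE 0.48, 95% interval -1.20 to 1.34). The sign of this list's median turned when a tumour was left out: it was 0.47 without WT tumour 1 and -0.27 without WT tumour 2. Without WT tumour 2, Stat6 passed the adjusted threshold as higher.

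Of 6 feedback inhibitors 3 had positive differences (median -0.05, and 0.19 without WT tumour 2), and an unadjusted p under 0.05 was reached by 1 higher gene and 0 lower ones, a share near the 8.68% and 12.5% of all genes. The higher gene was Socs3, which STAT3 induces and which blocks Janus kinases. Its log2 values were 10.17 in WT acetone skin, 11.30 and 11.40 in the tumours, 9.82 in SKO acetone skin, and 9.64 and 9.90 in SKO DMBA skin. Both tumours lay above all skin samples, by 1.17 against WT acetone skin (SE 0.27; limma adjusted p = 0.154) and by 1.58 against SKO DMBA skin (adjusted p = 0.0734). At the other end stood the STAT5 target Cish at -0.75 and Socs2 at -0.74, and the phosphatase gene Ptpn2 was second highest at 0.37. Without WT tumour 2, Socs2 passed the adjusted threshold as lower.

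Cytokines known to induce the ligands in keratinocytes were mostly higher in the tumours. Of 16 listed, 15 were on the array and 11 were tested; 10 had positive differences from WT acetone skin (median 1.61), and an unadjusted p under 0.05 was reached by 7 higher and 0 lower genes, beside 8.68% and 12.5% of all genes. None passed the adjusted threshold with all arrays. The highest was Il1f6, the gene of IL-36α, an epidermal alarmin, undetected in WT acetone skin at 5.03 and at 10.34 and 9.34 in the tumours, or at least 26.7-fold higher (limma adjusted p = 0.123). Il1f8, the gene of IL-36β, was 6.85 in WT acetone skin, 10.48 and 9.73 in the tumours, 6.73 in SKO acetone skin, and 7.37 and 8.81 in SKO DMBA skin. Its tumours lay above every skin sample, by 3.25 against WT acetone skin (SE 0.71; adjusted p = 0.145), and its second SKO DMBA sample was the higher of the pair, as for Il19 and Il24. The lowest were Tnf at -0.10 and Tslp, an epithelial cytokine of allergy, at 0.22. In the SKO comparison 10 of 11 were positive with a smaller median, 0.40. An unadjusted p under 0.05 was reached there by 2 higher genes and 0 lower ones, beside 3.98% and 3.77% of all genes. With 1 array left out at a time the median ran from 0.40 to 0.56 there and from 1.61 to 1.88 in the WT comparison.

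The next list held genes that IL-20 subfamily cytokines or IL-22 raise in cultured human keratinocytes and skin. Of 20 listed 17 were tested, 15 with positive differences in tumours against WT acetone skin, with a median of 3.25 beside -0.01 for all genes. At an unadjusted p under 0.05, 11 were higher and 1 was lower, beside 8.68% and 12.5% of all genes. None passed the adjusted threshold with all arrays. With 1 array left out at a time the median ran from 2.65 to 3.84. Mmp10, a matrix metalloproteinase of wound-edge keratinocytes, was 5.27 in WT acetone skin, 11.18 and 9.97 in the tumours, and undetected in all 3 SKO samples. The tumours were 5.31 log2 units above WT acetone skin (SE 0.56; limma adjusted p = 0.098) and at least 44.2-fold above SKO DMBA skin. S100a9, a subunit of the alarmin calprotectin, was 9.13 in WT acetone skin, 14.02 and 14.36 in the tumours, 6.94 in SKO acetone skin, and 9.29 and 10.56 in SKO DMBA skin. S100a9 is made by neutrophils too, and the part of neutrophils in its difference was not tested. The other 5 neutrophil markers on the array summed to 489 and 325 in the tumours and 189 to 243 in skin. Its difference was 5.06 in the WT comparison (SE 0.60; adjusted p = 0.112).

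In SKO skin S100a9 was 2.98 log2 units higher after DMBA than after acetone (SE 0.60, limma adjusted p = 0.459). Of the 17 genes 14 had positive differences there, with a median of 0.95, and 6 had an unadjusted p under 0.05 and were higher, 0 were lower, beside 3.98% and 3.77% of all genes. With 1 array left out at a time that median ran from 0.72 to 1.43. Lcn2, an iron-binding antimicrobial protein, was 1.72 higher in the SKO comparison and -0.02 different in the WT one. Mmp3, a stromal and epidermal protease, was the lowest of the list in the WT comparison at -0.96. The raised list in tumours against SKO DMBA skin had a median of 2.82, and at the same level 11 were higher and 0 lower, beside 12.4% and 17% of genes.

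Of 5 late differentiation genes that these cytokines lower in human epidermal models 4 were tested, and 2 had positive differences in the WT comparison (median 0.55, but 0.93 without WT tumour 1 and 0.22 without WT tumour 2). Dsc1, a desmosomal cadherin of the upper epidermis, was 8.47 in WT acetone skin, 11.24 and 10.97 in the tumours, 8.23 in SKO acetone skin, and 8.37 and 9.20 in SKO DMBA skin. It was higher in both tumours than in all skin samples (difference 2.63, SE 0.43; limma adjusted p = 0.128, below the threshold when either tumour was left out), against the direction that the list's name gives. Krt1, a keratin of the spinous layers, was at 1.20 (SE 1.17), and Krt10, its partner keratin, was at -0.12 and the envelope protein gene Lor at -0.10. Both probes read near the top of the range on every array, Lor at 64.9% to 79% of the brightest probe, so values near 0 do not show that these genes were unchanged. The 6 lists were chosen with earlier results of these data known and describe these samples only.

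**Figure D3:**
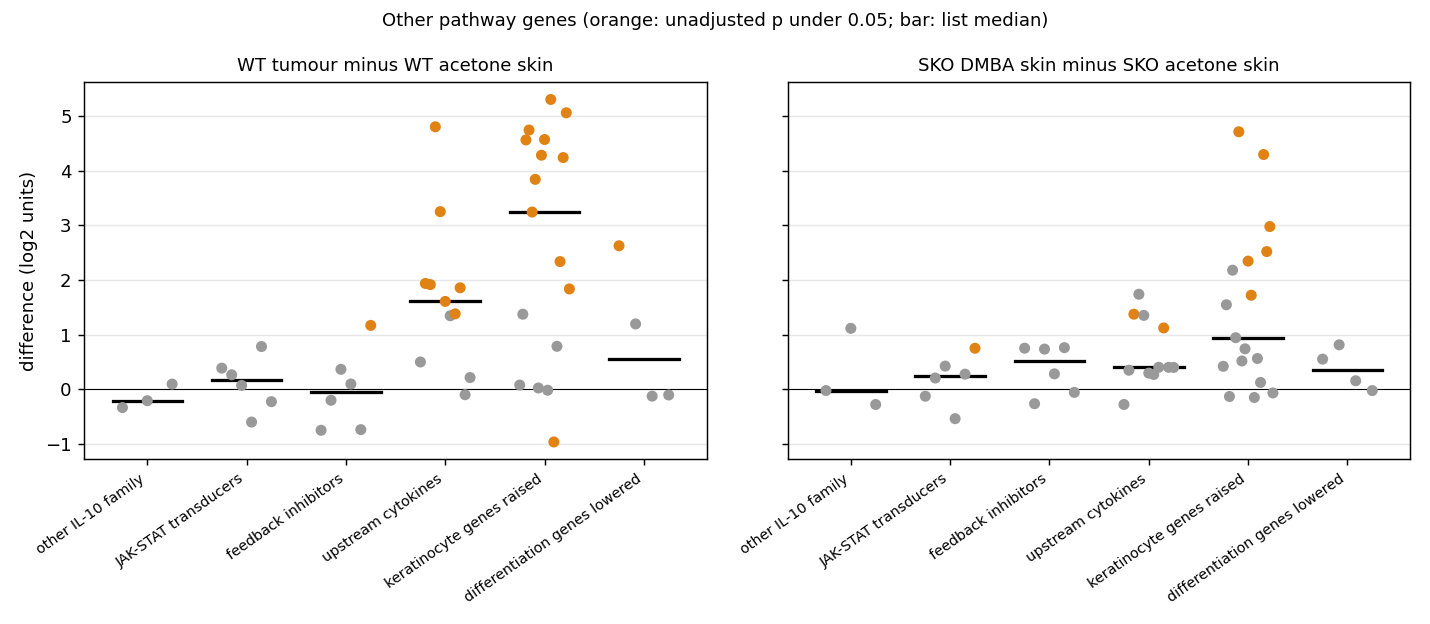
Log2 differences of each tested gene of the 6 pathway lists, in tumours against WT acetone skin and in SKO DMBA against SKO acetone skin, with orange points for an unadjusted p under 0.05 and a bar at each list's median. The raised keratinocyte genes have a median of 3.25 in the WT and 0.95 in the SKO comparison, and the JAK-STAT genes lie near 0 in both at 0.17 and 0.24.

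On the ligands' chromosome, the 3 annotated genes on either side were followed where measured. Fcmr, the gene of an IgM Fc receptor, ends 1283 bases before Il24 begins, at chr1:130865777-130880790. Its log2 values were 5.16 in WT acetone skin, 9.94 and 8.71 in the tumours, 7.79 in SKO acetone skin, and 8.01 and 7.60 in SKO DMBA skin. The tumours were the highest and WT acetone skin the lowest, with all 3 SKO samples between, unlike Il24, for which the acetone samples were alike. Fcmr was 4.16 higher in tumours than in WT acetone skin (SE 0.58; limma adjusted p = 0.121), 0.01 different in the SKO comparison, and 1.52 higher in tumours than in SKO DMBA skin (SE 0.48; adjusted p = 0.138).

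Fcmr is known from B cells. Of the other B cell markers, Ms4a1 and Jchain were undetected on all 6 arrays, and Cd79b was 4.78 in WT acetone skin and 4.41 in tumour 1, both undetected, 5.69 in tumour 2, 7.32 in SKO acetone skin, and 7.95 and 7.18 in SKO DMBA skin. Cd79b was thus low in the tumour in which Fcmr was highest. Further out, Mapkapk2, the gene of a stress kinase at chr1:131053700-131097871, differed by -0.08 in the WT comparison (SE 0.30). Il10 and, on the far side of Fcmr, Pigr were undetected on all arrays, and Gm15848 and Gm41952 had no named probe. Of the 7 measured genes, Fcmr, Il24 and Il19 were highest in the tumours, with the undetected Il20 between the ligands. Of all tested genes 26.2% had both tumours above all skin arrays.

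**Figure D4:**
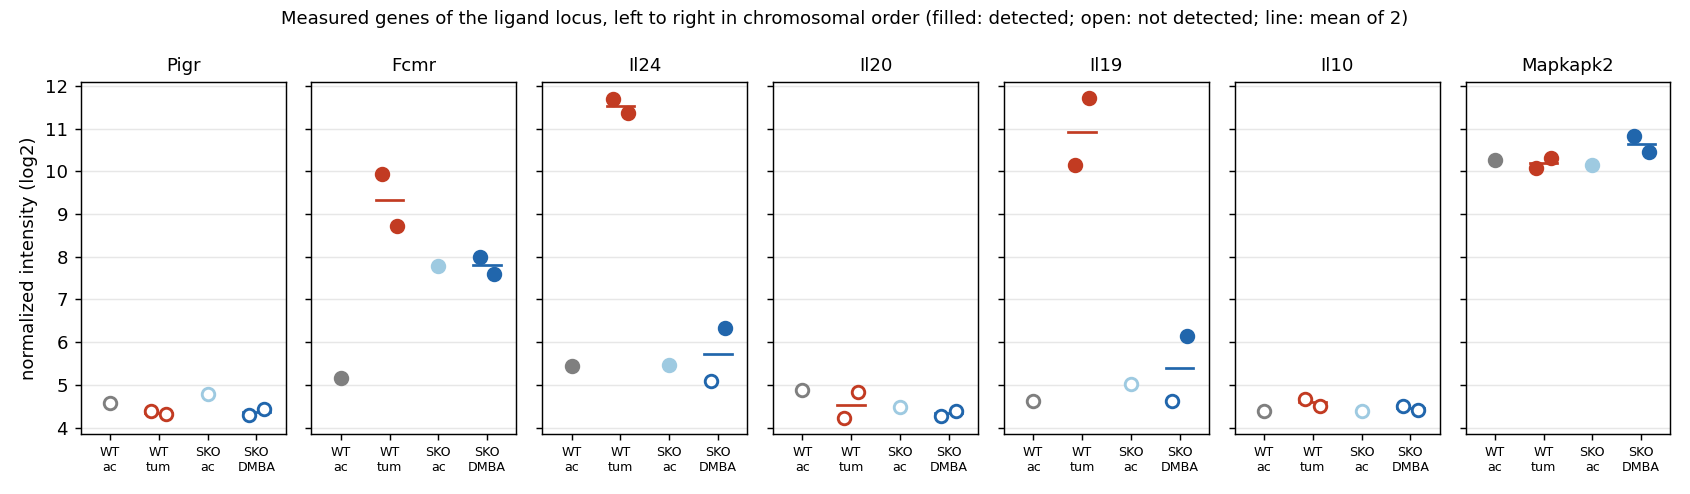
Normalized log2 intensity of the 7 measured genes of the ligand locus on each array, panels in chromosomal order, with filled points for detected and open points for undetected signals and a line at the mean of each group of 2. Fcmr, Il24 and Il19 are highest in the tumours, Il20 and Il10 are open on all arrays, and Mapkapk2 lies between 10.08 and 10.82.

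Genes with the most similar pattern were taken by Pearson's r of log2 values over the 6 arrays, which share 1 normalization and are dominated by the tumours, so r is a description only. For Il24 these were Bmp15 (0.9995), Wdr62 (0.9983) and BC005537 (0.9978), and 489 genes exceeded 0.95. Bmp15 and Wdr62 were undetected in WT acetone skin, so their differences from it are bounds, at least 2.01-fold and at least 2.34-fold. Their mean log2 levels in the tumours were 6.11 and 6.33, where the lowest detected levels were 5.75 in tumour 1 and 5.37 in tumour 2. For Il19 they were Stim2 (0.9988), Vmp1 (0.9982) and Slc25a13 (0.9965), with 178 genes above 0.95; like Il19 these were higher in tumour 2 than in tumour 1. For Il20rb they were Dbndd2 (0.9972), Serpinb6d (0.9945) and Angel2 (0.9936), with 130 genes above 0.95. Il20ra had 10 such genes, led by Akr1c19 (0.9833), Trib1 (0.9815) and Ushbp1 (0.9689). With 6 arrays, so many near-identical patterns say little about any single gene.

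Across the series, 35.5% to 43.3% of 45281 probes were detected per array, fewest on tumour 1. The targeted gene, Sting1, had an intensity of 144.5 in WT acetone skin, 85.7 and 155.8 in the tumours, 91.7 in SKO acetone skin, and 108.5 and 99.7 in SKO DMBA skin. It was undetected in tumour 1 and SKO acetone skin, and tumour 1, at 5.40 on the normalized log2 scale, lay among the SKO samples, at 4.94 to 5.55, with tumour 2 above them at 6.79 (log2 difference of tumours from SKO DMBA skin 0.65, SE 0.51; limma adjusted p = 0.423). The probe's position relative to the deletion is unknown here, so it does not check the labels.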

How the data were processed

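Total RNA of 6 samples was hybridised to 6 one-colour Illumina BeadChip arrays, per the labels. The deposited table holds, per the file headers and values, a linear intensity and a detection p-value for 45281 probes per array; the scanner software was not given in the sources used. These deposited p-values rose with intensity (Spearman correlation 0.975 or more on each array), so 1 minus the value was used. The authors' deposited matrix proved to hold log2 quantile-normalized signals minus each probe's median (mean absolute difference of at most 0.000136), which settled its scale, centring and direction; its column medians were -0.00263, 0.0122, 6.82e-05, -0.000698, -0.00172 and -0.00292 in the order WT acetone, tumours, SKO acetone, SKO DMBA. It served as an alternative. 4 rows without a probe name were left out.

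Signals were background-corrected with the detection p-values, quantile-normalized and log2-transformed with neqc (limma 3.58.1, R 4.3.3, offset 16). The platform annotation named 1 gene for 34885 probes (34807 matched in RefSeq GRCm38.p6), several for 18, which were not used, and none for 10378. Of 19057 genes, 11998 detected (p under 0.01) by their brightest probe on any array were fitted with 4 group means (lmFit, eBayes; 2 residual and 2.44 prior degrees of freedom), with Benjamini-Hochberg adjustment over all of them; the acetone arrays, 1 per genotype, borrow the spread of the groups of 2, and the number of arrays limits precision. The script was tested on simulated data. SE is limma's moderated standard error. A fold against a group undetected on every array is a bound for this background correction and offset. It sets the mean of the bright group against the higher of the lowest detected level and the probe's own signal on each array.

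The members and lists were chosen with earlier results of these data known. Named were the members, Sting1, the other IL-10 family genes, the 2 highest and 2 lowest differences of each other list in tumours against WT acetone skin, the 3 neighbours on either side of the ligand genes, and the 3 genes most correlated with each member detected on at least 3 arrays. The alternatives, 13 planned and 1 added after the data were seen, changed the normalization, the offset (50), the detection filter and the probes, or left out an array.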

Additional observations from a re-analysis of the deposited data

Results flagged for a closer look

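Il20ra and Il20rb drew attention because their responses ran in opposite directions in the genotypes on every array: both tumours were below WT acetone skin and both SKO DMBA samples above SKO acetone skin. The difference of the responses was -1.41 log2 units for Il20ra (limma adjusted p = 0.573) and -1.21 for Il20rb (adjusted p = 0.632), so neither passed the threshold. The same opposite pattern was found in 1242 of 11998 genes, or 10.4%, and its mirror image in 1197, or 9.98%. Each response rests on 1 acetone array, and the tissue (tumour or skin) and the genotype cannot be told apart. None of the dimmer probes of Il20ra and Il20rb had the opposite pattern on every array. With each of them the second SKO DMBA sample lay below SKO acetone skin. With the dimmer Il20rb probe tumour 2 also lay slightly above WT acetone skin. The difference of the responses was 0.15 and -0.71 for the dimmer Il20ra probes and -0.51 for the dimmer Il20rb probe.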

How the results depend on the processing

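Of 216 member differences recomputed under 14 alternatives, 201 kept direction and side of the threshold, 13 passed it and 2 reversed: without SKO DMBA replicate 2, Il19 and Il24 in the SKO comparison came to -0.40 and -0.36 (ranges over single arrays left out -0.40 to 1.12 and -0.36 to 0.89). Leaving out 1 array at a time, the tumours' differences from WT acetone skin ranged from 5.54 to 7.10 (Il19) and 5.93 to 6.25 (Il24), and those from SKO DMBA skin from 4.77 to 6.32 (Il19), 5.18 to 6.43 (Il24) and -1.15 to -0.74 (Il20rb); those that left out a tumour passed the threshold for the ligands. In the difference of responses both ligands passed it without WT tumour 2, at 5.99 (Il24) and 5.18 (Il19). Quantile normalization without background correction and the deposited matrix each gave 4.76 for Il24 in tumours against SKO DMBA skin, past the threshold. Genes called over all genes, 0 in each comparison, ranged when 1 array was left out from 0 to 2841 in the WT comparison, 0 to 202 in the SKO comparison, 0 to 3754 in tumours against SKO DMBA skin and 0 to 1234 in the difference of responses; the largest of each came without a tumour, when the SKO DMBA arrays alone set the spread. In tumours against SKO DMBA skin 7 genes, all higher, were called with either quantile setting, 135 (96 higher) over probes detected on all 6 arrays and 25 (20 higher) with every probe tested. Members with all DMBA arrays above both acetone arrays numbered 0 to 2 with 1 array left out and 1 with undetected signals raised to 1 limit. Members with both tumours above skin numbered 0 over probes detected on all 6 arrays, where Il19 and Il24 have no value, and members with both tumours below numbered 2 with equal medians, 2 without normalization and 1 to 2 with 1 array left out. The shares of all genes given above are those of the main setting, so these member counts have no share of all genes beside them. Equal medians and no normalization moved the median of all genes in tumours against WT acetone skin to -0.27 and -0.39. Over all alternatives Il20ra stayed between -1.63 and -0.75 in that comparison and Il20rb between -1.20 and -0.58. Over the 13 alternatives with a value, Il19 ran from 4.69 to 7.10 there and Il24 from 4.92 to 6.25. Of 336 list medians 301 moved by less than the spread and 35 by more. Where no cause is given, it was not tested. Dim probes near the detection limit have few usable digits: Il19 in skin, and Il20 and Il22ra1 everywhere. No paired analysis was possible because the replicate numbers follow accession order and the acetone groups hold 1 array each.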
